A study of Homo sapiens with 6 samples.

Results

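The replication-dependent histone genes encode the core histones H2A, H2B, H3 and H4 and the linker histones H1 that package DNA copied in S phase. They were taken by name alone, as genes with a current symbol of H1-1 to H1-6 or one that begins with H2AC, H2BC, H3C or H4C followed by digits. Of 18242 genes measured by a probe set that names 1 gene, 61 met the rule: 6 of class H1, 15 of H2A, 18 of H2B, 10 of H3 and 12 of H4. By location, 54 belong to the HIST1 cluster on chromosome 6, 4 to HIST2 and 2 to HIST3 on chromosome 1, and 1 to HIST4 on chromosome 12. A further 8 probe sets name several histone genes at once and are described apart.

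The cells were HK-2, an established human line of proximal tubule origin, immortalized with papillomavirus oncogenes, grown in serum-free keratinocyte medium. The 6 arrays came from 3 groups of 2, which were untreated control cells, cells given 50 μM cisplatin for 6 h and cells given 50 μM cisplatin for 24 h. Cisplatin is a platinum drug that crosslinks DNA. The control cells carry no time label, so the drug and the time in culture cannot be told apart, and nothing beyond the word biological says that the replicates were separate cultures, so p-values reflect only how these particular arrays vary. Values are log2 signals from robust multi-array average analysis (RMA), which sets every array to one distribution, so each fold change is relative to whatever else the array holds. Of the markers, 5 of 6 for renal epithelium lay at a log2 signal of 5 or more on all arrays, whereas this held for 0 of 5 for the differentiated proximal tubule, 1 of 4 for mesenchyme, 0 of 3 for endothelium and 0 of 4 for leukocytes. In bulk RNA a change in the share of cells in S phase and a change in histone mRNA per cell cannot be told apart.

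Most mRNAs end in a poly(A) tail, but those of replication-dependent histones end in a short stem-loop, bound by SLBP, the stem-loop binding protein. Transcription of these genes is driven at the histone locus body by NPAT, a substrate of cyclin E and CDK2, and the mRNAs are degraded quickly when DNA synthesis stops. Some of these genes also have a poly(A) signal downstream of the stem-loop, and such tailed transcripts are known from cells that have left the cell cycle. The labelling used here starts from poly(A) tails, so transcripts that end in the stem-loop are labelled poorly, and the arrays do not show which 3′ end a transcript had.

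Promoters are shown for 5 genes whose rise at 24 h was among the 10 largest, of every class but H3, because these genes rose together. The sequences are the 200 bases before the transcription start, from RefSeq on build GRCh38.p14, with capitals for 4 motifs on either strand: the TATA box as TATAAA, the CCAAT box, the octamer as ATTTGCAT and the GC box as GGGCGG. H2BC12 lies at chr6:27146859-27147058, H2BC8 at chr6:26216689-26216888, H2AC17 at chr6:27893186-27893385, H1-2 at chr6:26056471-26056670 and H4C12 at chr6:27831561-27831760, all on the minus strand.
H2BC12: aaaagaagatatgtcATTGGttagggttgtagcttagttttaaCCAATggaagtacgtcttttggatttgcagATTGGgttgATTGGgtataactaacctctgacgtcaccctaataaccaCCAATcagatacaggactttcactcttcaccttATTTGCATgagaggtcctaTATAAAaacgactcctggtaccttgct
H2BC8: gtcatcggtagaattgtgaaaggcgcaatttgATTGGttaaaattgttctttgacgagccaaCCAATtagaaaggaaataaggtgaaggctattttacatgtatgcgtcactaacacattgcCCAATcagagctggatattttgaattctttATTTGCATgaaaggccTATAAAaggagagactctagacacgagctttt
H2AC17: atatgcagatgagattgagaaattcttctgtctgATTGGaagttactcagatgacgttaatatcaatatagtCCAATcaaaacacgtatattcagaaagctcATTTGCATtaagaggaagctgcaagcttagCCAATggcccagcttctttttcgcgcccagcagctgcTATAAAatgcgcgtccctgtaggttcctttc
H1-2: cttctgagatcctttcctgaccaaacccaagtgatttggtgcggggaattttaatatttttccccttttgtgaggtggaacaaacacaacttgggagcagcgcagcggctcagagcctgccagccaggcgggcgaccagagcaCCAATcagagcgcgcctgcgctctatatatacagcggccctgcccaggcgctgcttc
H4C12: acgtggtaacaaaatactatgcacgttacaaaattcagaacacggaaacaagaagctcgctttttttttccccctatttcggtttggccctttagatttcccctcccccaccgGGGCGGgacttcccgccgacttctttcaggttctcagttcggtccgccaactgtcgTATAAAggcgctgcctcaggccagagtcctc

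A promoter entry was found for 56 of the 61 genes, the first being taken where a gene had several, and H2AC12, H3C11, H3C12, H4C1 and H4C3 had none. TATAAA stood in 55.4% of these promoters, against 8.59% of all 35116 promoters of the same length, and CCAAT in 87.5%, against 28.0%. The octamer ATTTGCAT, which POU-domain factors bind, stood in 39.3% of them, against 1.31% of all promoters. It was found in 14 of 18 H2B and 7 of 14 H2A promoters, in 1 of 8 H3 promoters and in no H1 or H4 promoter. The H3 promoter is that of H3C4, whose entry used here has the same start and the same bases as that of H2AC7, so these bases were counted for both genes. H2A and H2B genes with nearby starts on opposite strands also share bases, so a motif there was counted for each gene. The octamers of H2AC1, H2AC6, H2AC7, H2AC8, H2AC17 and H2AC20 are the same sites as in their paired H2B genes. The counts and percentages are therefore of promoters and not of separate sites. GGGCGG stood in 19.6%, against 40.1%. A match describes the letters and not a bound site. Among H2A and H2B genes the median log2 fold change at 24 h was 0.40 in the 21 with the octamer and 0.76 in the 11 without it. The ranges overlapped, at −0.15 to 4.13 with the octamer and 0.04 to 1.78 without. Genes that share a site were each counted here, and the difference was not tested.

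At 24 h most histone genes lay higher than in control cells. The median log2 signal of the 61 genes was 3.42 and 3.43 on the control arrays, 3.52 and 3.67 at 6 h, and 4.14 and 4.23 at 24 h, while the median of all genes stayed between 5.29 and 5.37 on all 6 arrays. Thus the arrays of the 3 groups did not overlap in the histone median, and the larger step came after 6 h. At a log2 signal of 5 or more there were 5 and 5 of the 61 genes on the control arrays, 6 and 6 at 6 h, and 14 and 14 at 24 h. Most of these signals were low on every array. The mean of the signals on the linear scale, in contrast, was lower after cisplatin, with a log2 of 7.004 and 7.021 in control cells, 6.799 and 6.788 at 6 h, and 6.648 and 6.698 at 24 h. H4C3 had the highest signal of the histone genes on all 6 arrays, so this mean mostly follows that 1 gene. Its log2 signals were 12.71 and 12.74 in control cells, and 11.86 and 11.87 at 24 h. Those of H4C12 were 7.29 and 7.07 in control cells, and 8.61 and 8.78 at 24 h. The fall of the mean is thus not that of most histone genes, as 58 of the 61 estimates at 24 h were above 0.

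**Figure D1:**
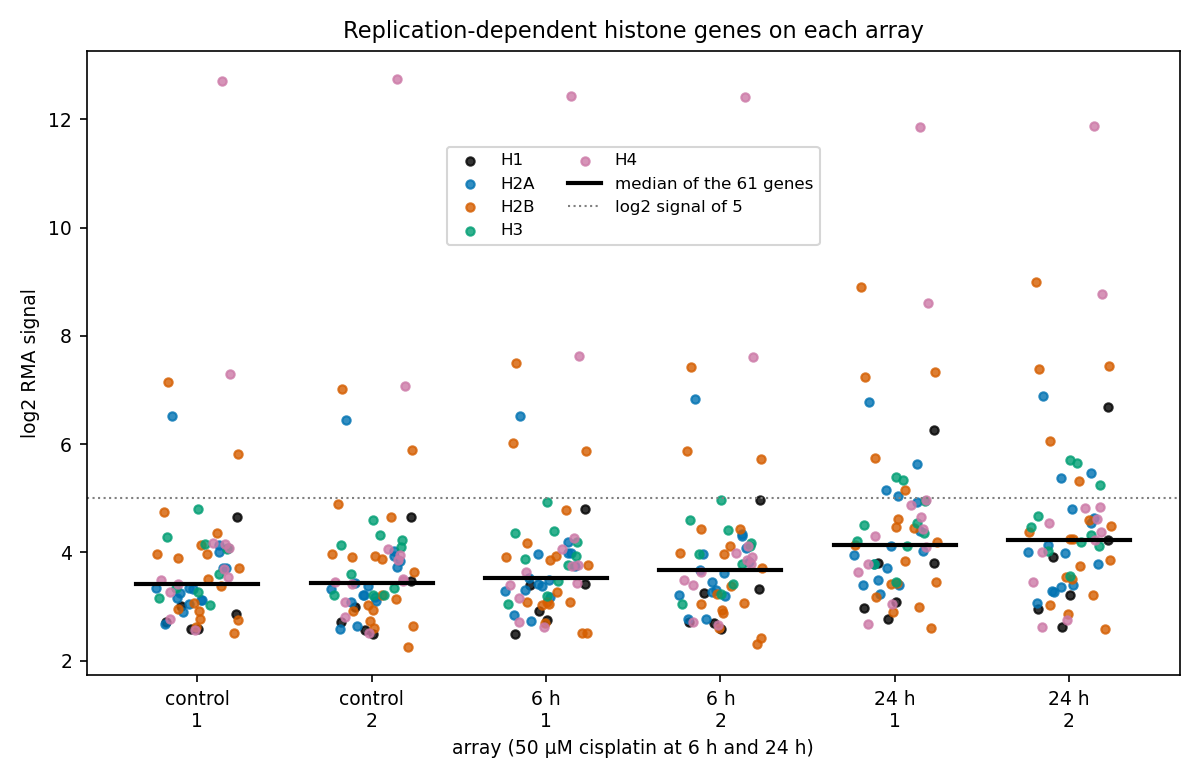
Log2 RMA signal (y axis) of the 61 replication-dependent histone genes on each of the 6 arrays (x axis), with 1 point per gene coloured by class, a bar at the median and a dotted line at 5. The medians at 24 h, 4.14 and 4.23, lie above those of control, 3.42 and 3.43, while the H4C3 points near the top lie lower at 24 h than in control.

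Against control, 46 of the 61 genes passed as higher at 24 h (limma, adjusted p under 0.05), 1 passed as lower and 14 did not pass. Of all genes tested, 31.2% passed as higher and 23.0% as lower. The median log2 fold change of the histone genes was 0.65, against 0.10 for all genes, and 58 of the 61 estimates were above 0. Both 24 h arrays lay above both control arrays for 54 genes and below them for 2, a pattern that 46.9% and 29.7% of all genes showed. The rule of the study's methods is at least a 2-fold change at p under 0.01, with no test or adjustment named. Applied here to unadjusted limma p-values, it gave 15 histone genes higher and 0 lower, where the background was 4.73% and 7.38%. These directions hold relative to other genes, since scaling the arrays to spike-in control probe sets turned the histone median to −0.23 and that of all genes to −0.78. The histone median lay 0.55 above that of all genes under all 4 other scalings tried, as one shift per array leaves this gap alone.

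At 6 h far fewer histone genes had moved. Of the 61, 9 passed as higher and 1 as lower, next to 14.0% and 15.8% of all genes, so the share of rises was near the background. The median log2 fold change was 0.10, against 0.03 for all genes. With control replicate 1, control replicate 2, 6 h replicate 1 or 6 h replicate 2 left out, 4, 3, 5 and 4 genes passed as higher at 6 h. Of the 10 genes that passed, H2BC12 alone did so with each of the 6 arrays left out in turn. Between the times, 41 genes passed as higher at 24 h than at 6 h and 1 as lower (background 21.2% and 16.7%), with a median of 0.48. In the comparisons with control, which share the control arrays, 8 genes passed as higher at both times, 38 at 24 h only and H2BC9 at 6 h only, while 13 passed at neither time.

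**Figure D2:**
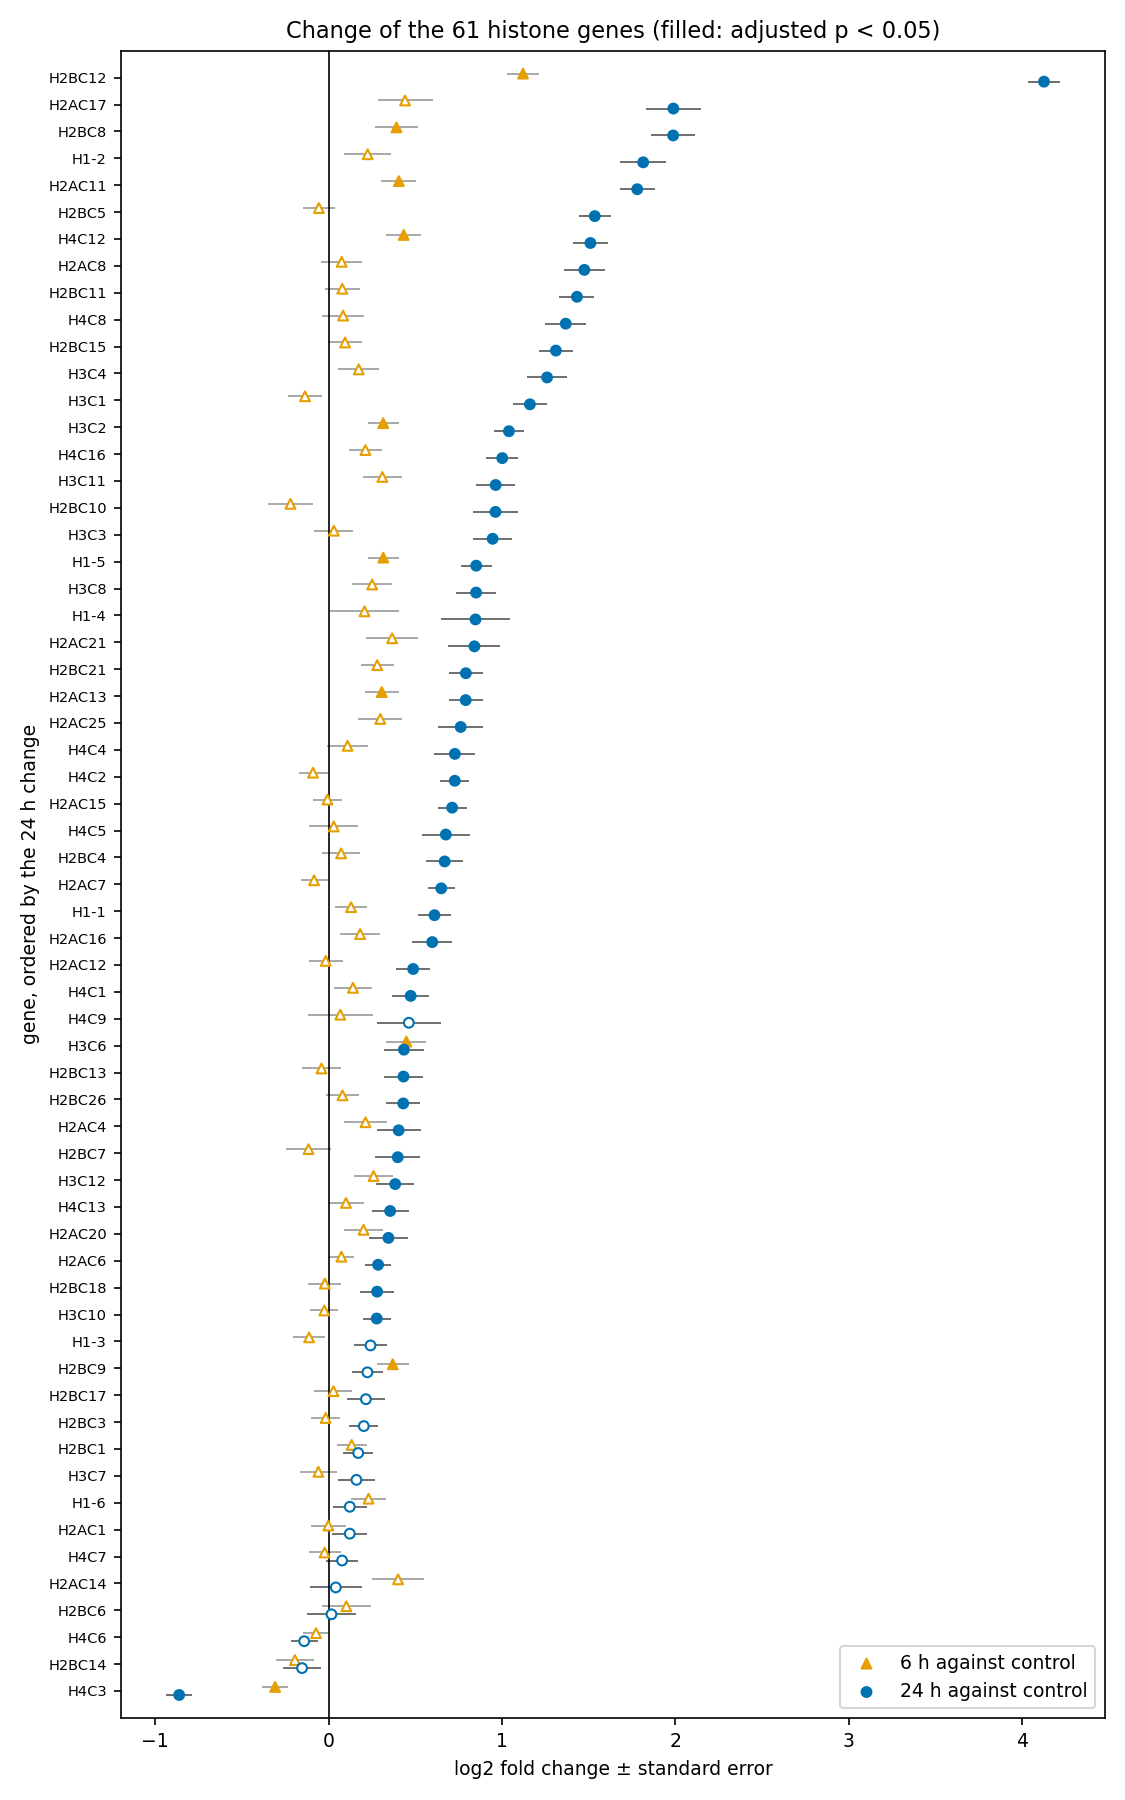
Log2 fold change against control with its standard error (x axis) for each of the 61 genes (y axis), ordered by the 24 h value, with triangles for 6 h, circles for 24 h and filled symbols where the adjusted p is under 0.05. Values at 24 h run from −0.86 for H4C3 to 4.13 for H2BC12, and 46 genes are filled to the right of 0 at 24 h, against 9 at 6 h.

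The largest change was that of H2BC12, which encodes a histone H2B. Its log2 signals were 4.75 and 4.89 in control cells, 6.01 and 5.87 at 6 h, and 8.90 and 8.99 at 24 h. The groups did not overlap at any step. The log2 fold change was 1.12 at 6 h (standard error 0.09, adjusted p = 4.81e-05, limma) and 4.13 at 24 h (standard error 0.09, adjusted p = 1.04e-07, limma), or 17.5-fold. A second probe set of H2BC12 gave 3.32 and 3.03 in control cells, 3.29 and 3.68 at 6 h, and 3.76 and 3.20 at 24 h. There the arrays of 24 h and control overlapped and the log2 fold change was 0.30 (standard error 0.21, adjusted p = 0.267, limma over probe sets). At each time a rise thus passed in only 1 of the 2 probe sets of this gene.

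H2AC17, an H2A gene, had log2 signals of 3.33 and 3.21 in control cells, 3.97 and 3.46 at 6 h, and 5.15 and 5.37 at 24 h. It rose by 1.99 at 24 h (standard error 0.16, adjusted p = 1.45e-05, limma), about 3.97-fold. H2BC8 had 3.90 and 3.92 in control cells, 4.17 and 4.43 at 6 h, and 5.74 and 6.05 at 24 h. This H2B gene was higher at both times, by 0.39 at 6 h (adjusted p = 0.0464, limma) and by 1.99 at 24 h (adjusted p = 4.00e-06, limma). A second probe set of H2BC8 stood at 0.12 at 6 h and did not pass (adjusted p = 0.635, limma over probe sets), and at 1.61 at 24 h. In the fit over probe sets the first one did not pass at 6 h either (adjusted p = 0.0701, limma over probe sets). In both genes every 24 h array lay above every array of the other groups.

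H1-2, a linker histone of somatic cells, had 4.66 and 4.65 in control cells, 4.80 and 4.96 at 6 h, and 6.26 and 6.68 at 24 h. Its rise of 1.82 passed at 24 h (standard error 0.13, adjusted p = 9.31e-06, limma), while the 0.23 at 6 h did not (adjusted p = 0.262, limma). H2AC11 had 3.12 and 3.17 in control cells, 3.48 and 3.62 at 6 h, and 5.04 and 4.81 at 24 h. It passed at 6 h with 0.41 and at 24 h with 1.78 (adjusted p = 0.0163 and 2.31e-06, limma). The 2 probe sets of H2AC11 gave 1.78 and 1.73 at 24 h, but at 6 h the second one stood at 0.033 and did not pass (adjusted p = 0.899, limma over probe sets).

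H2BC5 was among the genes with signal in control cells, with 5.81 and 5.89 there, 5.88 and 5.72 at 6 h, and 7.34 and 7.44 at 24 h. The 6 h and control arrays overlapped. The log2 fold change was −0.06 at 6 h (adjusted p = 0.712, limma) and 1.54 at 24 h (standard error 0.09, adjusted p = 2.91e-06, limma). Its 3 probe sets gave 1.54, 1.72 and 1.89 at 24 h. H4C12, an H4 gene, had 7.29 and 7.07 in control cells, 7.63 and 7.60 at 6 h, and 8.61 and 8.78 at 24 h. The groups separated at each step, with 0.43 at 6 h and 1.51 at 24 h (adjusted p = 0.0127 and 5.80e-06, limma). A second probe set of H4C12 stood at 0.23 at 6 h and did not pass (adjusted p = 0.149, limma over probe sets), and at 1.03 at 24 h.

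The other 3 of the 10 largest rises at 24 h were H2AC8 at 1.48, H2BC11 at 1.43 and H4C8 at 1.37, each with an adjusted p of at most 2.38e-05 (limma). At 6 h these genes stood at 0.08, 0.08 and 0.08 and did not pass. H2AC8 had 5.63 and 5.47 at 24 h against 4.13 and 4.02 in control cells on the log2 scale, and the H4C8 signals were 3.55 and 3.51 in control cells, 3.44 and 3.79 at 6 h, and 4.97 and 4.83 at 24 h. Of the genes that passed at 6 h, H3C6 stood at 0.45 at 6 h and 0.43 at 24 h, with no change past the threshold between the times (−0.01, adjusted p = 0.937, limma). H2BC9 was at 0.37 at 6 h and, at 24 h, at 0.22 (adjusted p = 0.0682, limma). H1-5, H3C2 and H2AC13 had small rises of 0.31 to 0.32 at 6 h and larger ones of 0.79 to 1.04 at 24 h. Of the 3 probe sets of H2AC13, 0 passed at 6 h and 1 at 24 h (limma over probe sets), with 24 h values from 0.25 to 0.79. Relative to all spike-ins the 24 h values of H1-5, H2AC13 and H3C6 turned to −0.033, −0.094 and −0.45, and H3C6 did not pass at 24 h without control replicate 1 or without 24 h replicate 2. All 6 h rises other than that of H2BC12 lay below 0.5 on the log2 scale.

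H4C3 was the single gene to fall, and it fell at both times. Its log2 signals were 12.71 and 12.74 in control cells, 12.43 and 12.41 at 6 h, and 11.86 and 11.87 at 24 h. No arrays of different groups overlapped. The log2 fold change was −0.31 at 6 h (standard error 0.08, adjusted p = 0.0153, limma) and −0.86 at 24 h (standard error 0.08, adjusted p = 2.50e-05, limma), or 0.55 of control. Its second probe set gave −0.97 at 24 h. Both probe sets of H4C3 are of the kinds that can also match transcripts of other genes. The fall was larger under the spike-in scalings and smaller under that to the beta-actin and GAPDH controls.

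By class, the median log2 fold change at 24 h was 0.73 for H1, 0.65 for H2A, 0.43 for H2B, 0.90 for H3 and 0.58 for H4. Those that passed as higher were 4 of 6 H1, 13 of 15 H2A, 12 of 18 H2B, 9 of 10 H3 and 8 of 12 H4 genes, and H4C3 was the H4 gene that passed as lower. The ranges of the classes overlapped, and a difference between classes was not tested. H3 genes moved within a narrower band than H2B genes, at 0.16 for H3C7 to 1.26 for H3C4, against −0.15 for H2BC14 to 4.13 for H2BC12. The 3 genes known from testis, H1-6, H2AC1 and H2BC1, which package sperm-cell chromatin or are expressed in germ cells, stood at 0.12, 0.12 and 0.17, and none passed.

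Along chromosome 6, HIST1 falls into 3 groups of neighbours set apart by gaps of more than 500000 bases in the RefSeq annotation. The median at 24 h was 0.63 over 34 genes in the first group, 1.43 over 5 genes in the second (H2BC11, H2AC11, H2BC12, H4C9 and H2AC12) and 0.60 over 15 genes in the third. Within each group large and small changes stood side by side. H4C3, which fell, is in the first group with H1-2 and H2BC8, which rose. The 4 HIST2 genes had a median of 0.57 and all passed as higher, as did both HIST3 genes (H2AC25 at 0.76, H2BC26 at 0.43) and the HIST4 gene H4C16, whose log2 signals were 4.31 and 4.53 at 24 h against 3.42 and 3.42 in control cells.

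**Figure D3:**
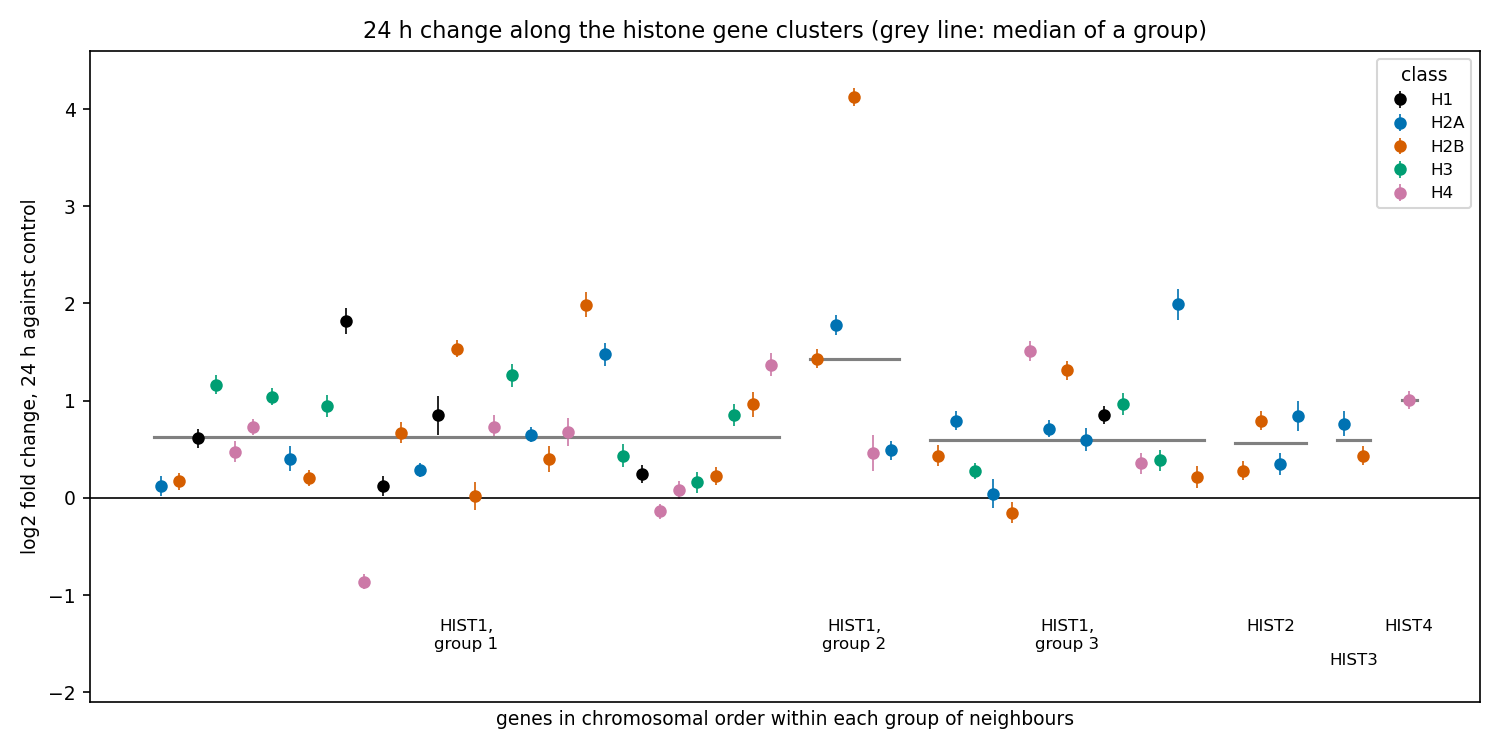
Log2 fold change at 24 h against control with its standard error (y axis) for the 61 genes in chromosomal order (x axis), split into groups of neighbours, coloured by class, with a grey line at the median of each group. The second HIST1 group has a median of 1.43 with H2BC12 at 4.13, and H4C3 at −0.86 is the point farthest below 0.

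Many H2A and H2B genes lie head to head and share one start region, so pairs of them can be set side by side. There were 11 such pairs with starts within 500 bases on opposite strands. In 8 pairs both genes passed as higher at 24 h, in 1 pair 1 gene did and in 2 pairs neither did. Counted singly, 13 of 15 H2A and 12 of 18 H2B genes passed as higher, against 31.2% of all genes. Whether genes of a pair moved more alike than unpaired genes was not tested. H2BC8 and H2AC8, 233 bases apart, stood at 1.99 and 1.48, and H2BC11 and H2AC11, 248 bases apart, at 1.43 and 1.78. The median absolute difference within a pair was 0.36 on the log2 scale. The largest was 1.77, between H2AC17 at 1.99 and H2BC17 at 0.22 (adjusted p = 0.130, limma), whose starts are 240 bases apart, so the H2AC17 promoter printed above is largely also that of H2BC17. H2BC17 had log2 signals of 2.60 and 2.58 at 24 h and 2.50 and 2.25 in control cells, at the low end of the histone signals.

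Since histone genes share much of their coding sequence, the probe sets were compared. In 30 of the 61 genes several probe sets name that gene alone, and in 29 of these all of them had the same sign at 24 h. All probe sets passed as higher in 18 of the 30 genes and as lower in 1, H4C3, and no gene had probe sets that passed in both directions. At 6 h all probe sets had the same sign in 16 of the 30 genes, all passed as higher in 0 and as lower in 1, and none passed in 24. Counted singly at 24 h, in a fit over all probe sets that name 1 gene, 75 of the 105 probe sets passed as higher and 2 as lower. The share of all probe sets that passed in that fit is not given here. The exception in sign at 24 h was H2BC18, whose 4 probe sets ran from −0.04 to 0.28. In 36 genes, H4C3 not among them, the chosen probe set is of the kind designed for 1 gene. Of these, 28 passed as higher at 24 h and 0 as lower, with a median of 0.54. Of the 25 with a probe set that several transcripts can share or cross-hybridize with, 18 passed as higher and 1 as lower, with a median of 0.71. For these 2 sets of genes the background is 31.2% higher and 23.0% lower over all genes.

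**Figure D4:**
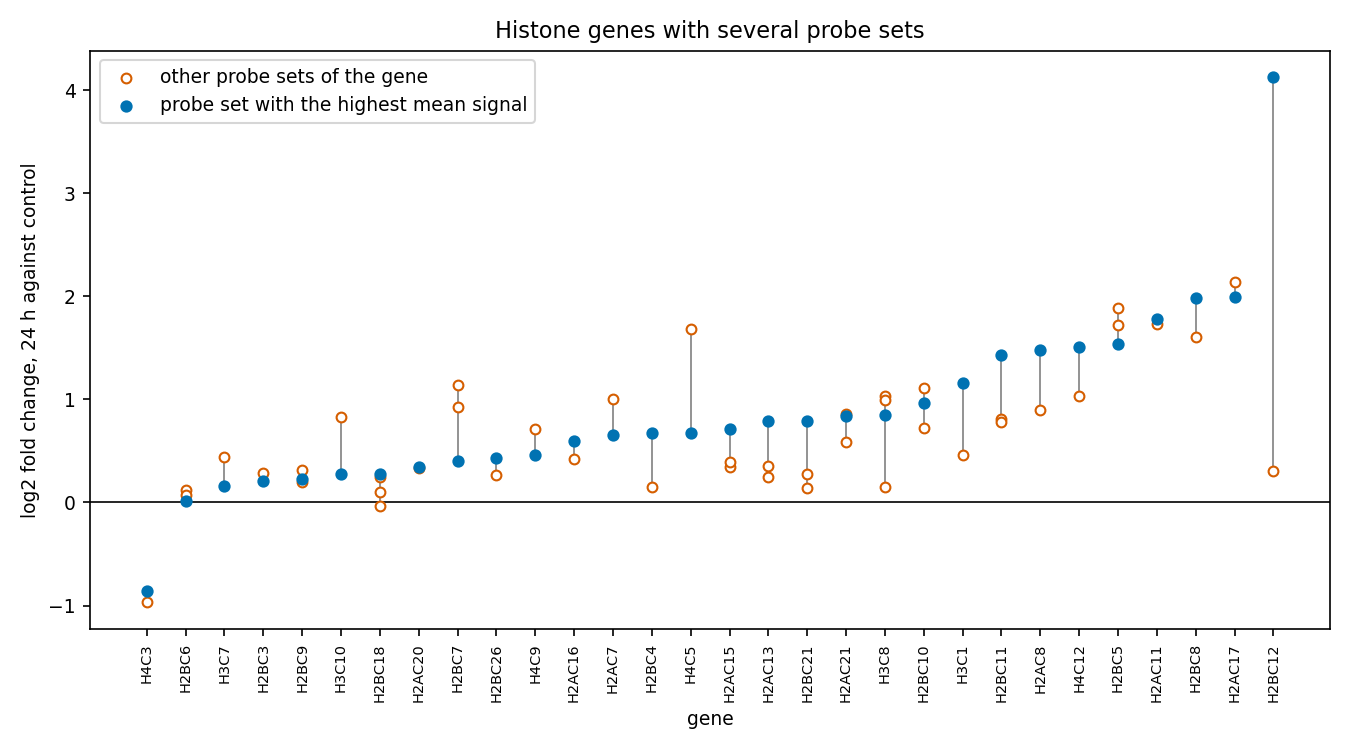
Log2 fold change at 24 h against control (y axis) of every probe set of the 30 histone genes with several (x axis, ordered by the chosen probe set), with filled points for the probe set of highest mean signal and open points for the others. The points of a gene lie on the same side of 0 except for H2BC18, and those of H2BC12, 4.13 and 0.30, lie farthest apart.

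Probe sets that name several histone genes gave log2 fold changes from −0.28 to 3.75 at 24 h. The pair that names H2AC18 and H2AC19, 2 H2A genes of HIST2, had log2 signals of 5.58 and 5.44 in control cells, 6.17 and 6.11 at 6 h, and 9.14 and 9.36 at 24 h in one probe set. The log2 fold change at 24 h was 3.75 there and 3.55 in the other. One probe set for H4C14 and H4C15 stood at 2.76, but the other, with 3.31 and 3.36 at 24 h against 3.70 and 3.52 in control cells, stood at −0.28 (adjusted p = 0.135, limma over probe sets). The probe set for H4C11 and H4C12 gave 1.92. One for H3C13, H3C14 and H3C15 gave 1.62, and the pair for H3C14 and H3C15 alone gave 0.29 and 0.30 and did not pass.

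The signals of these genes were mostly low. At a log2 signal of 5 or more in at least 2 arrays stood 13 of the 61 genes, 7 of them through the 24 h arrays alone, so these had to differ and their share is not used. In the other 48, fitted with the 7945 genes below that limit, 32 passed as higher at 24 h and 0 as lower, where 17.4% of those genes passed as higher and 3.93% as lower. The nonspecific control probe sets, 23 sets that match no transcript and differ in G and C content, were on average 0.27 higher at 24 h than in control, with 0.07 for the set named GC10, 0.41 for GC20 and 1.15 for GC25. Their part in the histone result was not tested. The 3′ minus 5′ difference of beta-actin, a sign of RNA integrity, was 2.07 and 1.11 in control cells, 2.02 and 1.53 at 6 h, and 1.97 and 2.83 at 24 h, so the 24 h and control arrays overlapped. That of GAPDH was 0.27 and 0.26 in control cells, 0.25 and 0.25 at 6 h, and 0.30 and 0.39 at 24 h. Both 24 h arrays thus lay above the other 4 in GAPDH, and the part of this in the histone result was not tested.

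The genes listed as replication-independent variants, most of which have tailed mRNAs, moved in both directions. H2AX is known to give both a stem-loop and a tailed mRNA. Of 10 measured, 4 passed as higher and 3 as lower at 24 h, with a median of 0.16. H1-10, a linker variant, had 8.33 and 8.25 in control cells, 8.93 and 8.94 at 6 h, and 10.32 and 10.36 at 24 h, a rise of 2.05 (adjusted p = 3.88e-07, limma). H2AJ, an H2A variant, rose by 2.15, and H2AX, the variant phosphorylated at DNA breaks, by 0.89 (adjusted p = 2.01e-05, limma). MACROH2A1, of macroH2A chromatin, fell by 0.71, and CENPA, the centromeric H3, fell by 1.64 at 6 h and by 0.46 at 24 h. H3-3B, which encodes H3.3, stood at 0.20 at 24 h and did not pass (adjusted p = 0.0603, limma). H3-3A was at log2 signals of 2.22 at 24 h and 2.18 in control cells on average in the probe set that names it alone.

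Genes that act on the histone genes and their mRNAs did not move as a block. Of 10 genes of transcription and the histone locus body, 5 passed as higher and 3 as lower at 24 h. CCNE2, a cyclin E, rose by 1.54 at 6 h and 1.29 at 24 h, and E2F1, an S phase transcription factor, by 0.81 and 1.01. The mean log2 signal of NPAT was 5.70 without cisplatin, then 5.02 at 6 h and 5.75 at 24 h, so that it was lower at 6 h (−0.68, adjusted p = 0.00116, limma) and did not pass at 24 h (0.05, adjusted p = 0.707, limma). GON4L fell by 0.80 and 0.84.

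Of 13 genes of histone mRNA 3′ end processing, 7 passed as higher and 3 as lower at 24 h. SLBP averaged a log2 signal of 10.05 without cisplatin, then 10.04 at 6 h and 9.39 at 24 h, and fell by 0.66 at 24 h (adjusted p = 7.04e-04, limma). ZNF473, a zinc finger protein of the U7 snRNP, rose by 1.33, LSM11, a U7-specific Sm-like protein, rose by 1.07, and CPSF3, the endonuclease that cuts both histone and tailed mRNAs, fell by 0.71. The general polyadenylation factors went mostly the other way, with 2 of 15 higher and 8 lower. CLP1 rose by 1.47 and PCF11, a termination factor, fell by 0.88.

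Of 15 genes of histone mRNA decay 4 were higher and 5 lower at 24 h, and TUT4, which adds uridines to RNA ends, fell by 1.14. Of 20 histone chaperones 5 were higher and 10 lower. ASF1B, the H3 and H4 chaperone of dividing cells, had the largest rise among them, of 1.43 at 6 h and 1.90 at 24 h, and HIRA, which deposits H3.3 outside S phase, fell by 0.81 and 1.48. Of 19 S phase genes 5 were higher and 9 lower, with a median of −0.15. TK1, a thymidine kinase, rose by 0.96, and POLA1, the catalytic subunit of DNA polymerase alpha, fell by 1.11. The background at 24 h is the 31.2% higher and 23.0% lower given above for these lists too.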

How the data were processed

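RNA of HK-2 cells was measured on 6 Affymetrix arrays. The authors made the deposited log2 values by RMA in Affymetrix Expression Console 1.1. The genome build behind the probe sets is not given in the sources used here. Of 49386 probe sets, 45253 named 1 gene, 1327 several and 2713 none here, and 93 were controls. Each gene was read from the probe set with its highest mean signal. The histone genes, lists and tests were chosen with earlier results of these data known. Groups were compared in 1 fit of limma 3.58.1 (R 4.3.3; lmFit, eBayes) over all arrays, and p-values were adjusted after Benjamini and Hochberg across the 18242 genes (threshold 0.05). The fit was checked on simulated data. Named were the 10 largest rises and falls among passing histone genes with separated arrays at each time, from each list no more than 3 rises and 3 falls, and SLBP, NPAT, H2AX, H3-3A and H3-3B. From the lists the text takes examples. Promoters and names came from RefSeq (GRCh38.p14). Alternatives changed the block, the probe sets, the moderation, the arrays, the filter, the scaling and the call rule, and left out each array. With 2 arrays per group, the number of arrays limits the precision. Replicates correlated at 0.996 to 0.998. Python 3.11.15 and matplotlib 3.10.9 were used.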

Additional observations from a re-analysis of the deposited data

Results flagged for a closer look

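Between 24 h and 6 h of cisplatin, 14 of the 16 named histone genes differed (limma, adjusted p under 0.05), which compares the effects at the 2 times directly, since both share the control arrays. These genes were named for their passing changes at either time, 10 of them as the largest rises at 24 h, so this count was in large part set by that choice. Over all genes 21.2% passed as higher and 16.7% as lower. The log2 difference, 24 h minus 6 h, was 3.01 for H2BC12 and lay from 1.28 to 1.60 for the next group, with 1.60 for H2BC8, 1.59 for H2BC5, 1.59 for H1-2, 1.55 for H2AC17, 1.40 for H2AC8, 1.38 for H2AC11, 1.35 for H2BC11 and 1.28 for H4C8. It was 1.08 for H4C12, 0.73 for H3C2, 0.54 for H1-5 and 0.48 for H2AC13. The difference was −0.55 for H4C3 (adjusted p = 8.11e-04). H3C6 and H2BC9 did not pass in this comparison.

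Among the nonspecific control probe sets, which the gene comparisons do not use, 8 were higher at 24 h than in control (adjusted p under 0.05, limma). Their log2 differences were 0.28 for the set named GC18, 0.34 for GC19, 0.41 for GC20, 0.53 for GC21, 0.59 for GC22, 0.68 for GC23, 0.77 for GC24 and 1.15 for GC25, on 2 arrays per group. Their part in the histone values was not tested.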

How the results depend on the processing

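Against control at 24 h, 31 of the 46 rises were kept without moderation and 15 were lost, with 1 fall. The 46 rises and 1 fall became 12 and 29 with the arrays scaled to all spike-ins, and 28 and 7 with hybridization spike-ins alone. They became 5 and 40 with poly-A spike-ins alone (an alternative chosen after seeing the data), and 12 rises with the signal filter, which tests 13 genes. With all, hybridization and poly-A spike-ins the median of all genes at 24 h became −0.78, −0.31 and −1.11. Of the 61 histone genes, 55 lay above that median under each of these scalings. The shares of all genes that passed under them are not given here, so the falls are not shown to be particular to histone genes. Under the rule of the methods there were 15 rises and 0 falls at 24 h, and over probe sets 75 and 2. With probe sets designed for 1 gene only, also chosen after seeing the data, 47 genes were tested and none fell. H4C3 has no probe set of this kind and was not tested, so the 0 falls in every comparison say nothing about it. The median of 0.65 became −0.23, 0.24 and −0.56 under these 3 scalings, 0.93 with the actin and GAPDH controls, 0.55 with the mean of all probe sets, 1.48 with the filter and 0.46 with probe sets for 1 gene. At 6 h the 9 rises became 2 without moderation, 5 with the filter, 1, 3 and 1 under the 3 spike-in scalings in that order, 1 with the actin and GAPDH controls, 1 at an adjusted p under 0.01 and 1 under the rule of the methods. The 1 fall became 23 and 36 with all and with poly-A spike-ins, 2 over probe sets, and 0 with the actin and GAPDH controls, at 0.01, under the rule of the methods and with probe sets for 1 gene. The median of 0.10 became −0.27, 0.0032 and −0.44 under the spike-in scalings and 0.23 with the filter. That of all genes at 6 h became −0.34, −0.069 and −0.51 under the spike-in scalings, and 41 of the 61 histone genes lay above it each time. Between the times the 41 rises became 23 without moderation, 10 with the filter, 16, 22 and 14 under the spike-in scalings and 14 under the rule of the methods. The 1 fall became 18, 7 and 19 under those scalings, 2 with trend and robust settings, 2 over probe sets, and 0 with the actin and GAPDH controls, under the rule of the methods and with probe sets for 1 gene. The median of 0.48 became −0.030, 0.17 and −0.19 under the scalings, 0.71 with the actin and GAPDH controls, 1.22 with the filter and 0.395 with probe sets for 1 gene. That of all genes between the times became −0.45, −0.25 and −0.60 under the spike-in scalings, and 52 of the 61 histone genes lay above it each time. Fewer genes tested account for lower counts under the filter, and the other causes were not tested. Of the 13 genes 7 passed the filter through the 24 h arrays alone, so its 24 h counts and medians support nothing.

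Scaled to all spike-ins, at 6 h H1-5 stood at −0.055, H2AC13 at −0.064, H2BC9 at −0.00075, H3C2 at −0.056, H2AX at −0.034, ZNF473 at −0.079, LSM11 at −0.0090 and TK1 at −0.082, and at 24 h H1-5 at −0.033, H2AC13 at −0.094 and H3C6 at −0.45. Scaled to poly-A spike-ins, at 6 h H1-5 stood at −0.22, H2AC11 at −0.14, H2AC13 at −0.23, H2BC8 at −0.15, H2BC9 at −0.17, H3C2 at −0.23, H3C6 at −0.092, H4C12 at −0.11, H2AX at −0.20, ZNF473 at −0.25, LSM11 at −0.18, PCF11 at −0.038 and TK1 at −0.25, and at 24 h H1-5 at −0.36, H2AC13 at −0.42, H3C2 at −0.17, H3C6 at −0.78, H2AX at −0.32, E2F1 at −0.20, LSM11 at −0.14 and TK1 at −0.25. No other named gene changed direction.

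With each array left out in turn, rises numbered 37 to 46 at 24 h, 3 to 10 at 6 h and 30 to 40 between the times, falls 1, 0 to 1 and 1 to 2, and the medians lay at 0.60 to 0.65, 0.09 to 0.13 and 0.45 to 0.53. No pairing by replicate number was seen in the values, as the deviations of same-numbered arrays correlated at 0.05, −0.06 and −0.06. Whether same-numbered samples shared a culture or batch cannot be told from this, and the labels do not say. With the replicate number as a block the counts stayed at 46, 9 and 41 rises and 1 fall in each comparison, and no named histone gene changed its call, while LSM11 and CPSF3 no longer passed at 6 h (adjusted p = 0.0556 and 0.0583, limma). With 2 arrays per group and mostly low signals, a gene that did not pass is not shown to be unchanged.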
